A study of Mus musculus with 26 samples.

Results

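RNA was sequenced from FACS sorted bone marrow monocytes, small peritoneal macrophages (SPMs) and MHCII negative lung macrophages of naive female WT and ACKR2-/- mice. ACKR2 is an atypical chemokine receptor that binds and takes up inflammatory CC chemokines without the G protein signalling of other chemokine receptors. The genes described here are the neighbours of Ackr2 on mouse chromosome 9, apart from its chemokine receptor genes. Members had to start within 5 Mb of Ackr2 on the side of lower coordinates, or anywhere from there to the end of the chromosome (mm10, GRCm38). Ackr2 itself lies at chr9:121898355-121911074. Of 226 genes listed there, 13 were left out by name (Ackr2, Rpl14, Rpsa, Cx3cr1, Xcr1, Cxcr6 and the Ccr genes), 204 of the other 213 had the same identifier in all 3 count tables, and 80 of these had enough reads in at least 1 cell type to be tested. These 80 genes are the members, of 54863 genes listed in the SPM table. They were thus chosen by position and by their read counts, which had to reach the minimum of the filter in about as many samples as 1 genotype had.

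There were 4 WT and 4 ACKR2-/- samples of monocytes, 4 and 4 of SPMs, and 5 and 5 of lung macrophages, 26 in all. All animals were untreated, and WT mice were C57BL/6J mice that had been purchased, whereas ACKR2-/- mice lacked the receptor in every cell and were bred as a separate colony and not as littermates, so that genotype and colony cannot be told apart. The methods give an age for the mice of the study as a whole and none for these samples. Monocyte and SPM samples each held cells of several pooled mice, and how many mice went into a lung sample is not stated in the sources used.

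A monocyte sample held 15450670 to 19218213 counts on genes, an SPM sample 12781144 to 35400034, and a lung macrophage sample 19950019 to 29770252. Levels are given as CPM, the read count of a gene scaled by the TMM-adjusted size of its library. The members together held between 0.0811% and 0.279% of a sample's counts. Monocyte samples held 5 monocyte markers (Ly6c2, Ccr2, Csf1r, F13a1 and Cd14) at a summed 7491 to 8217 CPM in WT and 4560.0 to 8615 CPM in ACKR2-/- samples. They also held 8 neutrophil and neutrophil precursor genes at 50757 to 112969 CPM in WT and 20114 to 75583 CPM in ACKR2-/- samples. B cell genes summed to 641 to 738 and 731 to 1021 CPM in them. In SPMs the small peritoneal macrophage list summed to 25260 to 38654 CPM. Most of this was H2-Ab1, which encodes an MHCII chain, at 24425 to 37813 CPM. Large peritoneal macrophage genes summed to 187 to 930 CPM in WT and 828 to 1585 CPM in ACKR2-/- SPMs. B cell genes summed to 292 to 938 and 545 to 808 CPM there, and erythroid genes to 1.93 to 115.8 and 49.8 to 697.5 CPM. Lung samples held 6 epithelial genes at 252 to 18893 CPM, and H2-Ab1 reached 21242 CPM in the library labelled WT replicate 3 while the remaining 9 had 253 to 1708 CPM. The SPM library labelled WT replicate 1 stood apart in Malat1, a nuclear RNA, with 4071 CPM against 487 to 1021 CPM in the other 7. In bulk samples such as these, fewer cells of a type and less RNA per cell cannot be told apart.

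Ackr2 transcripts followed the labels in SPMs, where the WT samples held 5, 8, 7 and 9 reads and the ACKR2-/- samples held 0 each (p = 0.0286, exact two-sided permutation test on CPM, the smallest p that 4 against 4 can give). A count of 0 there allows up to 0.0773 to 0.115 CPM, counting 3 reads as the limit and counting error alone. In monocytes 2 reads were seen in a single WT sample and none elsewhere, so the gene checks no label there. In lung macrophages the WT samples held 22.1, 17.7, 7.75, 14.6 and 0 CPM and the ACKR2-/- samples 1.64, 1.37, 1.07, 0.282 and 0.372 CPM (p = 0.0476, exact two-sided permutation test). The library labelled WT replicate 5 had no Ackr2 read, and the groups overlapped for that reason.

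In this segment the chemokine receptor genes, left out here, lie among genes of unrelated function. Genes that lie close together on a chromosome are inherited together, so a colony selected for an allele carries the neighbours of that allele too. Of the 80 members, 43 lay on the side of lower coordinates and 37 on the side of higher coordinates, 57 were protein coding, and 23 were long noncoding RNAs, pseudogenes or other transcripts. By the annotation the spans of 60 members, introns included, overlapped that of another gene. Overlap of exons was not computed. The library kit does not mark the strand and the strand setting of the counting is not stated in the sources used. Reads from a stretch that is exonic in both genes of such a pair therefore cannot be told apart by strand.

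In WT monocytes the highest member per exon length was Eif1b, a translation initiation factor, at 127.7 RPKM (the CPM divided by exon length in kilobases), followed by Myd88, the adaptor of Toll-like receptors, at 71.2 RPKM. Eif1b was also the highest member in WT SPMs, at 78.8 RPKM, ahead of Higd1a, a protein of the inner mitochondrial membrane, at 52.8 RPKM. In WT lung macrophages Myd88 led at 73.7 RPKM and Acaa1a, a peroxisomal thiolase, followed at 39.6 RPKM. Of the 80 members, 45 were tested in all 3 cell types, 11 in 2 and 24 in 1, and 19 were tested in lung macrophages alone.

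In monocytes, 2 of the 55 members tested fell in ACKR2-/- samples and 0 rose (edgeR quasi-likelihood test, adjusted p under 0.05 and absolute log2 fold change over 0.5). Among all 13246 genes tested in monocytes 1.27% were called, 0.355% lower and 0.913% higher, and in the rest of chromosome 9 6 of 632 genes were called. The pair that fell was Sacm1l, the SAC1 phosphatase that removes phosphate from phosphatidylinositol 4-phosphate in the endoplasmic reticulum and Golgi, and Vill, villin-like, of the actin-binding villin family. They lay on opposite sides of Ackr2, Sacm1l 1.62 Mb away at higher coordinates (chr9:123529759-123592600, plus strand) and Vill 2.83 Mb away at lower coordinates (chr9:119052778-119071525, plus strand).

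Sacm1l stood at 15.8, 12.0, 11.02 and 10.8 CPM in the WT monocyte samples and at 5.49, 3.98, 7.26 and 6.59 CPM in the ACKR2-/- samples. No ACKR2-/- value reached the lowest WT value. The level was 2.12-fold lower in ACKR2-/- monocytes (log2 fold change -1.09, SE 0.21, edgeR adjusted p = 0.0332). In SPMs, where it was low, Sacm1l ranged from 1.87 to 3.30 CPM in WT and from 1.34 to 3.50 CPM in ACKR2-/- samples, and in lung macrophages from 21.2 to 27.6 CPM and from 17.8 to 27.1 CPM, so that the genotypes overlapped in both. The 3' end of Sacm1l overlaps Slc6a20b on the other strand over 1801 bases, and Slc6a20b was too low to be tested in monocytes.

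Vill stood at 113.3, 129.3, 132.3 and 105.6 CPM in WT and at 70.2, 72.9, 91.2 and 70.8 CPM in ACKR2-/- monocytes. The groups did not overlap, with a fall of 1.57-fold (log2 fold change -0.66, SE 0.13, edgeR adjusted p = 0.0324). In SPMs its mean was 25.1 ± 6.14 CPM in WT and 29.6 ± 7.13 CPM in ACKR2-/- samples (SD, n = 4 each), and in lung macrophages 59.6 ± 19.3 and 45.6 ± 15.1 CPM (SD, n = 5 each), with overlap in both. Neither call was firm. Without any 1 of the 8 monocyte samples the adjusted p of Vill ranged from 0.0133 to 0.128 and passed the threshold in 1 of the 8 fits, and that of Sacm1l ranged from 0.0205 to 0.124 and passed in 2.

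A further 14 members had an unadjusted p under 0.05 in monocytes, which makes 16 of 55, 10 lower and 6 higher, where 17% of all tested genes had one (8.17% lower and 8.83% higher). With DESeq2, 9 of 67 members with an adjusted p were called, 7 lower and 2 higher, against 3.38% of all genes (1.16% lower and 2.22% higher). The 7 were Sacm1l, Vill, Csrnp1, Ano10, Abhd5, Lars2 and Limd1, and the 2 were Eomes and E530011L22Rik. WT and ACKR2-/- samples did not overlap in 7 members that were lower and 2 that were higher, where 5.25% and 4.94% of all tested genes did the same.

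Lars2, Limd1 and Sacm1l follow each other along the chromosome from 1.46 to 1.62 Mb beyond Ackr2. Lars2 is the mitochondrial leucyl-tRNA synthetase, and Limd1 is a LIM domain scaffold protein known from cell junctions, Hippo signalling and the degradation of hypoxia-inducible factor. Lars2 stood at 642, 389, 554 and 424 CPM in WT and 169, 329.8, 216 and 298 CPM in ACKR2-/- monocytes, without overlap (log2 fold change -0.99, SE 0.23, edgeR adjusted p = 0.06). Limd1 stood at 70.7, 51.6, 72.2 and 60.0 CPM in WT and 32.2, 25.8, 47.0 and 44.9 CPM in ACKR2-/- monocytes, also without overlap (log2 fold change -0.76, SE 0.19, edgeR adjusted p = 0.0822). Gm26917, a noncoding locus outside the segment, was also lower, with 216 to 346 CPM in WT and 59.2 to 183 CPM in ACKR2-/- monocytes. Its part in the Lars2 result was not tested.

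**Figure D1:**
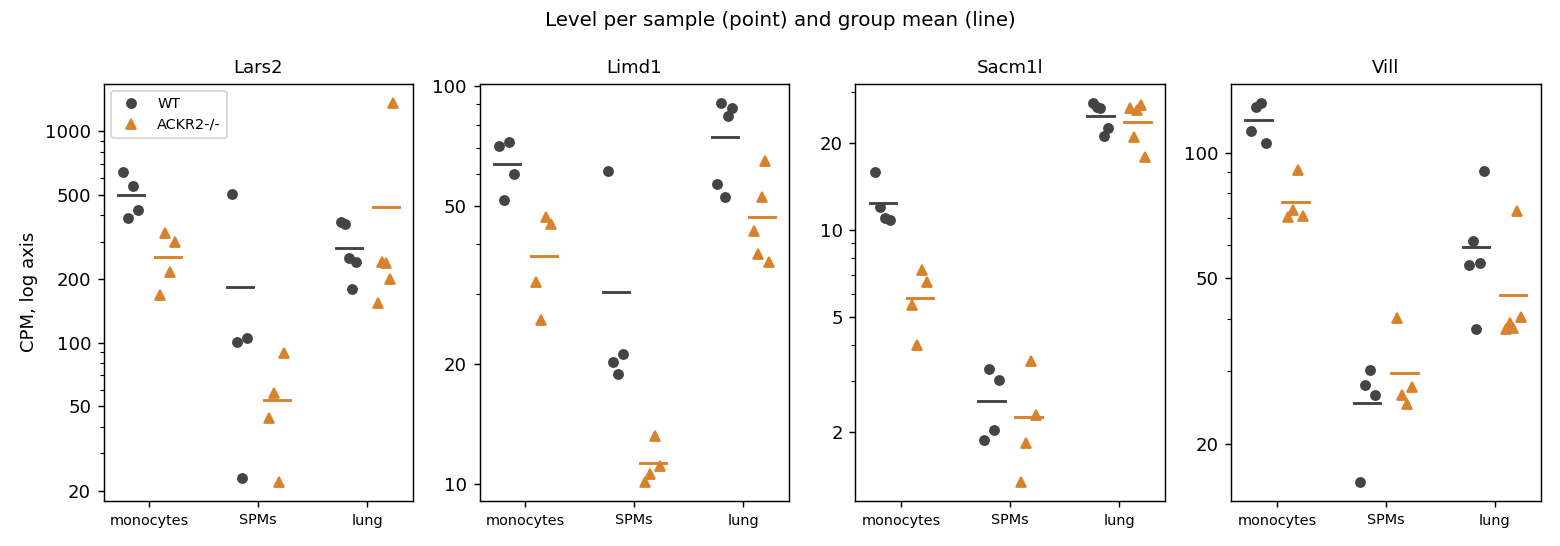
Level of Lars2, Limd1, Sacm1l and Vill in every sample (points, CPM on a log axis) in monocytes, SPMs and lung macrophages, with the mean of each genotype as a line (WT circles, ACKR2-/- triangles, n = 4 and 4, 4 and 4, 5 and 5). All 4 genes are separated by genotype in monocytes, Limd1 also in SPMs, and single libraries lie far from the rest for Lars2 in SPMs (507 CPM) and in lung macrophages (1366 CPM).

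The promoters of the pair called in monocytes, Sacm1l and Vill, and of Lars2, which lies beside Limd1 and Sacm1l, are shown so that their letters can be compared. RefSeq promoters (GRCm38.p6, from 250 bases before to 50 after the start) matched 60 of the 80 members by symbol, and Limd1 was among those not matched. Capitals mark the GC box (GGGCGG), the CCAAT box (CCAAT) and the core of the site of PU.1, the myeloid transcription factor (GAGGAA), each searched on both strands, with no letters shared between the motifs marked. The line for Sacm1l is chr9:123529503-123529802 (plus strand), that for Vill chr9:119052528-119052827 (plus strand) and that for Lars2 chr9:123366677-123366976 (plus strand).
Sacm1l: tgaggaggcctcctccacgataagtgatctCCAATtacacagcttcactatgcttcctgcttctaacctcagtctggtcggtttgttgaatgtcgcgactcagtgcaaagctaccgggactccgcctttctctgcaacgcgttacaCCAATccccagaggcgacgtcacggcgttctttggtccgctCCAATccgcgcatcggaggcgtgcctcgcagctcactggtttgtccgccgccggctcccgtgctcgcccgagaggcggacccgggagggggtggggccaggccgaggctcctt
Vill: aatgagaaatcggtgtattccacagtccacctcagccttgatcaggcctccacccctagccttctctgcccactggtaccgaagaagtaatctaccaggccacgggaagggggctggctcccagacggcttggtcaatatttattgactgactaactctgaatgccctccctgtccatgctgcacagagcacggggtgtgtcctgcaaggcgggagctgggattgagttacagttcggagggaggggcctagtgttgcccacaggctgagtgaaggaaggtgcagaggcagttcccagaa
Lars2: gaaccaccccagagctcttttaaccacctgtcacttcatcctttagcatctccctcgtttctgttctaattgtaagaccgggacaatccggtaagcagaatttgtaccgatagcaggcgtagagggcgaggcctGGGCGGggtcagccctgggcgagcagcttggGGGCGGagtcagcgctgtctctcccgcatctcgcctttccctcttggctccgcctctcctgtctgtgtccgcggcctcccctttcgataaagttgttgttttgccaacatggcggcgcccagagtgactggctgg
Sacm1l held 3 CCAAT boxes and no GC box, Lars2 held 2 GC boxes and no CCAAT box, and Vill held none of the 3 motifs. Over the 60 member promoters the GC box was found in 36 (60%), the CCAAT box in 23 (38.3%) and the PU.1 core in 13 (21.7%), where 35.9%, 37.9% and 28.3% of the promoters of all 27025 genes in the table held them. These 2 sets are unlike, since members had to have enough reads to be tested while the 27025 genes were not filtered by reads. For a member the promoter nearest its annotated start was taken, and for all genes the first one listed. The shares therefore do not show a property of the segment. A match is a description of the letters in this window.

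The other members that DESeq2 called lower in monocytes were Csrnp1, a nuclear protein regulated by AXIN1, Ano10, an anoctamin of the endoplasmic reticulum, and Abhd5, the activator of the triglyceride lipase ATGL. Csrnp1 was low and very even in WT, at 5.47, 5.60, 5.45 and 5.48 CPM, and stood at 3.12, 3.53, 2.84 and 2.18 CPM in ACKR2-/- monocytes, with no overlap (log2 fold change -0.91, SE 0.21, edgeR adjusted p = 0.06). Csrnp1 lies inside the annotated span of Cx3cr1 over all of its 13496 bases on the same strand. Abhd5 (log2 fold change -0.61, SE 0.16, edgeR adjusted p = 0.089) and Ano10 (log2 fold change -0.57, SE 0.15, edgeR adjusted p = 0.0976) each overlapped between genotypes by a small margin. Zdhhc3, a Golgi palmitoyltransferase, ranged from 75.8 to 106.7 CPM in WT and from 61.9 to 74.1 CPM in ACKR2-/- monocytes, and Azi2, an adaptor of the kinase TBK1 and the first gene inside the limit, from 56.8 to 66.5 and from 47.0 to 52.7 CPM. Neither passed the adjusted threshold (edgeR adjusted p = 0.126 and 0.208).

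Among the members that were higher in monocytes, Eomes, a T-box factor of NK and memory T cells, had 1, 0, 0 and 1 reads in WT and 22, 8, 22 and 15 reads in ACKR2-/- samples, too few for the edgeR filter. E530011L22Rik, which is antisense to Nktr, had 0 to 0.278 CPM in WT and 0.569 to 1.29 CPM in ACKR2-/- samples (log2 fold change 2.43, SE 0.63, edgeR adjusted p = 0.0883). It was the 1 member tested in monocytes whose WT samples were all under the minimum level, so that it could only be found higher. 1700048O20Rik, Gm47121 and Ppp2r3d reached this minimum, 0.561 CPM, in every ACKR2-/- monocyte sample but not in every WT sample. They too passed the filter only with their ACKR2-/- samples, so their higher level is not independent of the filter. The summed level of 10 T cell genes was 3.67 to 4.73 CPM in WT and 66.6 to 119.2 CPM in ACKR2-/- monocytes, all 8 that were tested rose, and Themis was the one at 0 in all WT samples. The 5 NK cell genes summed to 0 to 0.334 CPM in WT and 2.11 to 3.88 CPM in ACKR2-/- monocytes, with Ncr1 at 0 in both. The part of these cells in the results for Eomes and E530011L22Rik was not tested. Zfp445, a zinc finger protein of imprinted loci, was the other member higher without overlap, at 15.4, 14.7, 16.2 and 13.3 CPM in WT and 34.9, 17.8, 17.6 and 21.6 CPM in ACKR2-/- monocytes (edgeR adjusted p = 0.168).

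**Figure D2:**
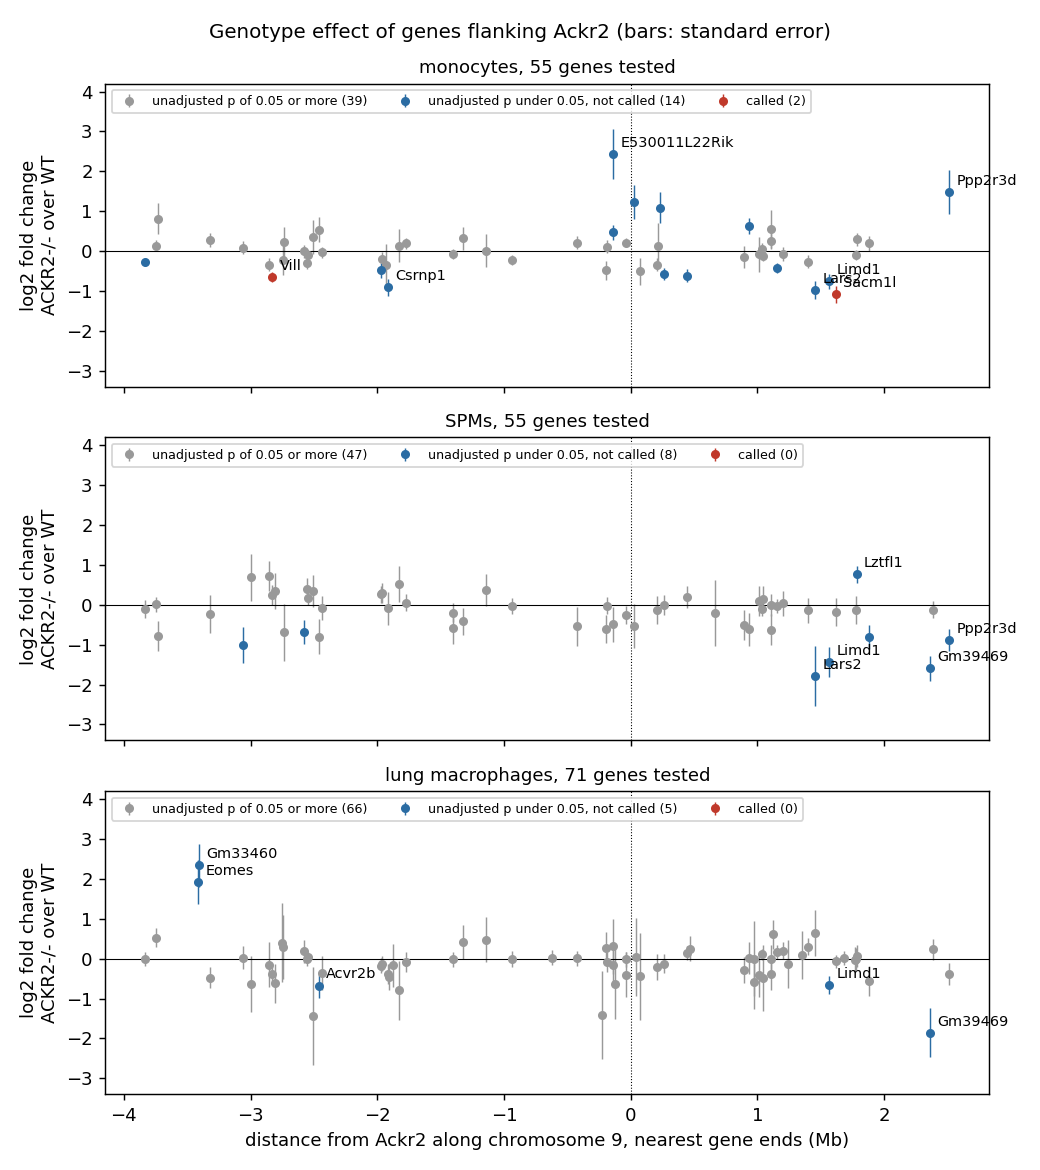
Log2 fold change of ACKR2-/- over WT for each member tested (points, with the standard error as a bar) against its distance from Ackr2 in Mb, in monocytes, SPMs and lung macrophages. The 2 called members, Vill and Sacm1l, lie on opposite sides in monocytes, and no member was called in the other cell types.

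By distance, no member within 1 Mb of Ackr2 was called by edgeR in monocytes, while 3 of the 9 that DESeq2 called lay there (E530011L22Rik, Ano10 and Abhd5). Of the 16 tested there, 7 were lower and 9 higher, and the median absolute log2 fold change was 0.48, against 0.25 for the 25 members at over 1 to 2.5 Mb, 0.27 for the 14 beyond, and 0.21 over all tested genes. Unadjusted p under 0.05 was reached by 7, 6 and 3 members at these distances, and by 17% of all tested genes. The 7 within 1 Mb were E530011L22Rik, 1700048O20Rik and Gm47121, at 1.9 CPM or less in every monocyte sample, and Ano10, Abhd5, Nktr and Zfp445, at 13.3 to 101.7 CPM. Fold changes at the level of the first 3 rest on few reads, and these 3 passed the filter only with their ACKR2-/- samples. The part of low counts in the medians by distance was not tested. In SPMs 11 of the 13 nearest were lower, with a median log2 fold change of -0.25 against -0.05 over all tested genes, but 0 of them had an unadjusted p under 0.05. Without WT replicate 1, the SPM library high in Malat1, 5 of these 13 were lower and 8 higher, with a median log2 fold change of 0.08 against 0.01 over all tested genes, so the direction rested on that library. In lung macrophages the 21 nearest had a median log2 fold change of -0.02 and a median absolute log2 fold change of 0.17, and that of all tested genes was 0.21.

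The 4 nearest members on each side behaved in this mixed way. Higd1a, 0.04 Mb away, was at 119.4 ± 9.30 CPM in WT and 137.4 ± 11.7 CPM in ACKR2-/- monocytes (SD, n = 4 each), at 160.4 ± 42.0 and 134.7 ± 11.5 CPM in SPMs and at 53.1 ± 8.998 and 52.5 ± 11.3 CPM in lung macrophages (SD, n = 5 each), with overlap in each. Snrk, an AMPK-related kinase 0.206 Mb away, was at 38.1 ± 5.30 and 30.1 ± 7.31 CPM in monocytes and overlapped as well. 1700048O20Rik, the closest on the other side at 0.026 Mb, had 0.280 to 0.716 CPM in WT and 0.637 to 1.48 CPM in ACKR2-/- monocytes (edgeR adjusted p = 0.183). Gm47112, Zfp651, Fam198a and Pomgnt2 were at 3.80 CPM or less in every sample of every cell type, and none of them was called. E530011L22Rik, 0.138 Mb away, had 0 to 0.278 CPM in WT and 0.569 to 1.29 CPM in ACKR2-/- monocytes. Its groups did not overlap there, and DESeq2 called it higher while edgeR did not.

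In SPMs, 0 of the 55 members tested passed, where 0.0462% of 12997 tested genes did. An unadjusted p under 0.05 was reached by 8 members, 7 lower and 1 higher, against 5.46% of all tested genes (2.52% lower and 2.93% higher). DESeq2 called 1 of 72 members, Gm39469, which was lower, against 0.15% of genes (0.0701% lower and 0.0801% higher). Groups were apart in 6 members that were lower (Gm17399, Oxsr1, Limd1, Fyco1, Gm39469 and Ppp2r3d) and in 1 that was higher (Lztfl1), where 1.6% and 1.8% of all tested genes were.

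Limd1 was again lower in SPMs, at 61.2, 20.3, 18.9 and 21.2 CPM in WT and 10.1, 10.6, 13.2 and 11.1 CPM in ACKR2-/- samples. The groups did not overlap (log2 fold change -1.43, SE 0.37, edgeR adjusted p = 0.788). The high WT value came from the library that stood apart in Malat1, and without it the log2 fold change was -0.84 (edgeR adjusted p = 0.135). Lars2 stood at 507, 101.1, 22.9 and 105.2 CPM in WT and 44.3, 57.6, 21.98 and 89.9 CPM in ACKR2-/- SPMs, so the groups overlapped, and its log2 fold change went from -1.78 to -0.52 without that library.

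Gm39469 is a long intergenic noncoding RNA of 461 exon bases at chr9:124270358-124282139 on the minus strand, 2.36 Mb from Ackr2. It had 0 reads in all 8 monocyte samples, which allows up to 0.158 to 0.195 CPM. In SPMs it had 2.68, 2.58, 2.55 and 1.55 CPM in WT and 0.805, 0.660, 0.979 and 0.646 CPM in ACKR2-/- samples, 29 to 56 reads against 18 to 38. The WT samples were all above the ACKR2-/- samples, with means of 2.34 ± 0.53 and 0.773 ± 0.155 CPM (SD, n = 4 each, log2 fold change -1.59, SE 0.31, edgeR adjusted p = 0.33 and DESeq2 adjusted p = 0.00927). In lung macrophages it had 1.23, 1.22, 1.24, 1.92 and 1.41 CPM in WT and 0.230, 0.325, 0.903, 0.402 and 0.0532 CPM in ACKR2-/- samples, again without overlap (log2 fold change -1.86, SE 0.61, edgeR adjusted p = 1.00, DESeq2 adjusted p = 0.187, and exact permutation p = 0.00794, the smallest that 5 against 5 can give). It was the one member besides Limd1 with groups apart in the same direction in 2 cell types. Its RefSeq promoter (chr9:124283368-124283667, minus strand) is shown because the transcript was lower in both macrophage populations, with its single CCAAT box, on the opposite strand, in capitals. The window follows the RefSeq start and lies wholly upstream of the counted span, which ends at 124282139. It may therefore not be the promoter of the transcript that was counted.
Gm39469: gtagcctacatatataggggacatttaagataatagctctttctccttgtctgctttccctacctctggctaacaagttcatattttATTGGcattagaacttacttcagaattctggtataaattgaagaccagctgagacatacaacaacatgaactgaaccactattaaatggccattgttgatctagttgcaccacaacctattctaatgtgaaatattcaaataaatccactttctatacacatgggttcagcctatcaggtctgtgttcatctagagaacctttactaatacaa

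Ppp2r3d, a regulatory subunit of protein phosphatase PP2A and the last member on the chromosome, had 11.1, 5.73, 6.16 and 5.80 CPM in WT and 4.10, 4.33, 3.58 and 3.55 CPM in ACKR2-/- SPMs (log2 fold change -0.89, SE 0.27, edgeR adjusted p = 0.788). In monocytes it was near the detection limit, with 2, 1, 11 and 5 reads in WT and 12, 20, 11 and 15 in ACKR2-/- samples, and its log2 fold change had the other sign, 1.48 (SE 0.56, edgeR adjusted p = 0.212). Ppp2r3d passed the filter in monocytes only with its ACKR2-/- samples, so that sign is not independent of the filter. The difference between these effects was 2.26 (SE 0.55, edgeR adjusted p = 0.0887, DESeq2 adjusted p = 0.00618). Lztfl1, which regulates the traffic of proteins to cilia, was the member higher in SPMs, at 5.75, 6.51, 4.398 and 6.02 CPM in WT and 9.04, 8.58, 10.2 and 11.01 CPM in ACKR2-/- samples (log2 fold change 0.77, SE 0.21, edgeR adjusted p = 0.788). It lies within the annotated span of Ccr9 on the other strand. Fyco1, a Rab7 adaptor of autophagosome transport whose span overlaps Cxcr6 on the other strand, was at 4.65 ± 1.85 CPM in WT and 2.68 ± 0.20 CPM in ACKR2-/- SPMs (SD, n = 4 each, edgeR adjusted p = 0.788).

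**Figure D3:**
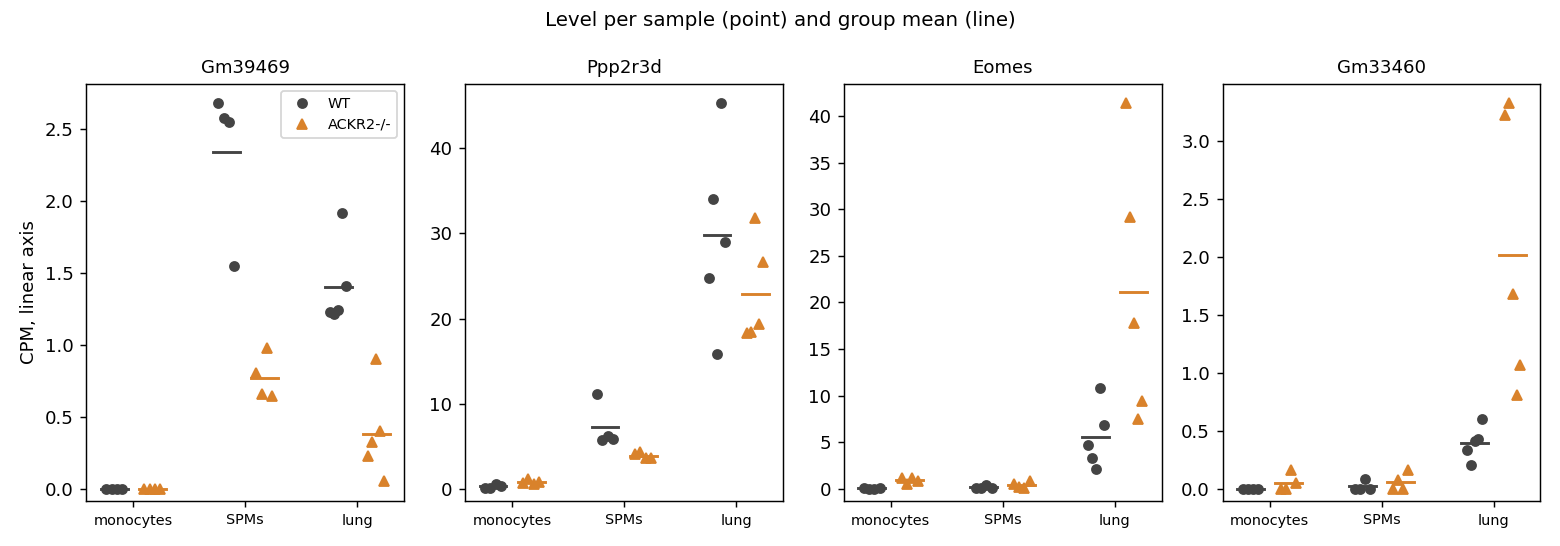
Level of Gm39469, Ppp2r3d, Eomes and Gm33460 in every sample (points, CPM on a linear axis), with the mean of each genotype as a line. Gm39469 is separated by genotype in SPMs and lung macrophages and at 0 in monocytes, and Gm33460 is higher in all 5 ACKR2-/- lung samples.

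In lung macrophages, 0 of the 71 members tested passed, and 0% of the 16824 tested genes did. An unadjusted p under 0.05 was reached by 5 members, 3 lower and 2 higher, against 2.97% of all tested genes (1.72% lower and 1.24% higher). DESeq2 called 1 of 77 members, which was higher, against 0.0938% of genes (0.0677% higher). That member was Gm33460, a noncoding RNA whose span overlaps that of Eomes over 574 bases on the opposite strand. Gm33460 had 0.331, 0.203, 0.413, 0.431 and 0.604 CPM in WT and 3.22, 3.33, 1.68, 0.805 and 1.06 CPM in ACKR2-/- samples, without overlap (log2 fold change 2.34, SE 0.55, edgeR adjusted p = 1.00, DESeq2 adjusted p = 0.0254). Eomes itself had 4.67, 3.32, 2.07, 10.8 and 6.85 CPM in WT and 41.4, 29.1, 17.8, 7.48 and 9.46 CPM in ACKR2-/- samples, and the groups overlapped (log2 fold change 1.93, SE 0.55, edgeR adjusted p = 1.00). The 5 NK cell genes summed to 116.2 to 315 CPM in WT and 290 to 1818 CPM in ACKR2-/- lung samples, none was at 0, and none of the 5 passed the test. Ncr1, which marks NK cells, was highest in the ACKR2-/- samples with the most Eomes, at 97.8, 95.8 and 50.03 CPM, stood at 20.2 and 9.41 CPM in the other two, and ranged from 10.8 to 25.9 CPM in WT. The part of these cells in the Eomes and Gm33460 results was not tested.

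Limd1 was lower in lung macrophages too, at 56.8, 90.9, 52.5, 84.3 and 87.9 CPM in WT and 43.3, 37.7, 52.6, 64.9 and 36.2 CPM in ACKR2-/- samples. The groups overlapped (log2 fold change -0.67, SE 0.22, edgeR adjusted p = 1.00, exact permutation p = 0.0397). Leaving out the libraries labelled WT replicates 3 and 5, with high H2-Ab1 and without Ackr2 reads, left this value at -0.67. Acvr2b, the type IIB activin receptor, stood at 5.05, 4.98, 4.08, 4.78 and 5.14 CPM in WT and 3.02, 3.40, 4.60, 2.13 and 1.91 CPM in ACKR2-/- lung samples, with a single ACKR2-/- sample among the WT values (log2 fold change -0.67, SE 0.31, edgeR adjusted p = 1.00). Lars2 was between 154 and 241 CPM in 4 ACKR2-/- samples and at 1366 CPM in the library labelled replicate 5, against 179.5 to 371 CPM in WT.

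Taking the 3 cell types in a single fit of the 26 samples, 79 members could be tested and 2 passed for the genotype effect averaged over cell types, where 0.461% of 17792 genes did. Limd1 was lower, by 1.89-fold (average log2 fold change -0.92, SE 0.16, edgeR adjusted p = 0.00324, DESeq2 adjusted p = 5.0e-06, where DESeq2 called 0.636% of genes, 0.0759% lower). It was among only 4 genes of the 17792 called lower (0.0225%), while 78 were called higher (0.438%). Without any 1 sample, the average of Limd1 ranged from -0.97 to -0.75 with an adjusted p from 0.000756 to 0.0102, so it passed in all 26 such fits. Eomes was higher (average log2 fold change 2.76, SE 0.48, edgeR adjusted p = 0.00246), and also passed in all 26. In SPMs, where it had 1 to 5 reads in WT and 3 to 31 in ACKR2-/- samples, the NK cell genes summed to 2.44 to 12.8 and 11.7 to 69.8 CPM. Without the SPM library high in Malat1 and the lung libraries labelled WT replicates 3 and 5 together, an alternative chosen after seeing the data, Limd1 was at -0.76 (edgeR adjusted p = 0.00304) and Eomes at 2.67 (edgeR adjusted p = 0.0138).

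**Figure D4:**
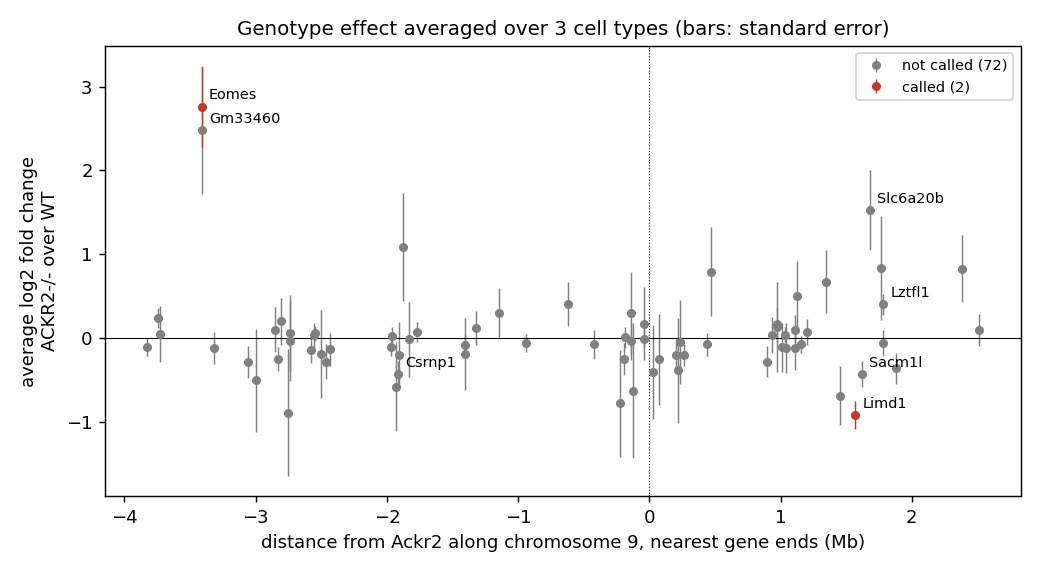
Genotype effect averaged over monocytes, SPMs and lung macrophages (log2 fold change of ACKR2-/- over WT, with the standard error as a bar) against the distance from Ackr2 in Mb, for the 74 of 79 members in the joint fit whose standard error was under 1. Limd1 at -0.92 and Eomes at 2.76 are the 2 members called.

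An unadjusted p under 0.05 for the average was reached by 7 of the 79 members, 3 lower and 4 higher, against 5.29% of all genes (2.33% lower and 2.97% higher). The genes on either side of Limd1 did not pass in the average. Lars2 had an average log2 fold change of -0.69 (SE 0.35, edgeR adjusted p = 0.960) and Sacm1l an average log2 fold change of -0.43 (SE 0.15, edgeR adjusted p = 0.541). Csrnp1 had -0.44 (SE 0.16, edgeR adjusted p = 0.637). Lztfl1 had 0.40 (SE 0.13, edgeR adjusted p = 0.372). Of the 45 members tested in all 3 cell types, 10 were lower in each (Azi2, Csrnp1, Ctnnb1, Eif1b, Exog, Gm10052, Limd1, Sacm1l, Snrk and Tcaim), 4 were higher in each (Cmc1, Gm18101, Lztfl1 and Tmem42) and 31 were mixed. Without SPM WT replicate 1, 7 were lower in each, and Azi2, Csrnp1, Ctnnb1 and Snrk were no longer among them while Zfp105 was. Without the libraries labelled lung WT replicates 3 and 5 as well, 3 were lower in each (Limd1, Sacm1l and Tcaim) and 3 higher (Gm18101, Lztfl1 and Trak1). These fits were chosen after seeing the data. Limd1 was the 1 member with an unadjusted p under 0.05 and a lower level in all 3 cell types. Lars2 and Gm39469 had this in 2 cell types, and 0 members had an unadjusted p under 0.05 and a higher level in 2.

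Between cell types, 0 of the 79 members differed in their genotype effect by edgeR, for monocytes minus SPMs, monocytes minus lung macrophages and SPMs minus lung macrophages, where 0.253%, 0.152% and 0.0393% of all genes did. An unadjusted p under 0.05 was reached by 10, 10 and 4 members, against 7.46%, 6.07% and 6.15% of all genes. DESeq2 called 1 member, Ppp2r3d for monocytes minus SPMs, where it called 0.782% of genes. Sacm1l, called in monocytes alone, had an effect 1.05 lower in log2 in monocytes than in lung macrophages (difference -1.05, SE 0.36, edgeR adjusted p = 0.474), and -0.97 relative to SPMs (SE 0.39, edgeR adjusted p = 0.563). For Vill the difference between monocytes and SPMs was -0.97 (SE 0.38, edgeR adjusted p = 0.533). These calls in monocytes are therefore not shown to differ from the other cell types.

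By role, the members were sorted by hand into small groups under broad names, which describe some of their genes loosely. Snrk, an AMPK-related kinase, was counted under growth factor and Wnt signalling. Csrnp1, a nuclear protein, was counted under Toll-like receptor and plasma membrane signalling. Values for a group describe its list and not a pathway. Of the 6 members of growth factor and Wnt signalling (Ctdspl, Oxsr1, Acvr2b, Ctnnb1, Snrk and Limd1), 5 were lower in each cell type, not the same 5, since Acvr2b was higher in monocytes and Ctdspl in SPMs, and 0 were called in any. Their median log2 fold change was -0.29 in monocytes, -0.40 in SPMs and -0.18 in lung macrophages, against 0.00, -0.05 and -0.04 over all tested genes. In SPMs without WT replicate 1, 3 of the 6 were lower and 3 higher, with a median of -0.08, and in lung macrophages without the libraries labelled WT replicates 3 and 5 the median was -0.52. Ctnnb1, beta-catenin, was at 73.6 ± 7.87 CPM in WT and 62.7 ± 8.42 CPM in ACKR2-/- monocytes, and at 142.2 ± 27.6 and 141.8 ± 29.9 CPM in lung macrophages. Of the 8 members of the secretory pathway and membrane traffic, 5 were lower in each cell type, and Sacm1l was the 1 called, in monocytes. Of the 7 members of cytoskeleton, motors and cilia, 5, 4 and 6 were tested, and Vill was the 1 called, in monocytes. Among 6 members of Toll-like receptor and plasma membrane signalling 0 were called, and Myd88 was at 183.5 ± 8.15 CPM in WT and 148.7 ± 30.2 CPM in ACKR2-/- monocytes, at 69.1 ± 25.6 and 90.6 ± 5.46 CPM in SPMs and at 189.8 ± 38.0 and 188.2 ± 27.1 CPM in lung macrophages (SD, n = 4, 4 and 5 per genotype), with no call in any.

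The genes just outside the limit, Tgfbr2 and Rbms3, are not members. Tgfbr2, the type II receptor of TGF-beta, had log2 fold changes of 0.12, -0.04 and -0.25 in monocytes, SPMs and lung macrophages, and Azi2 and Cmc1, the first members inside it, had -0.28, -0.10 and -0.01, and 0.14, 0.01 and 0.53. Over the 80 members, 24 had an unadjusted p under 0.05 in at least 1 cell type and 56 had none.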

How the data were processed

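The authors deposited counts of reads per gene, 1 table per cell type (54375 genes for monocytes, 54863 for SPMs and 57186 for lung macrophages), made from SMARTer amplified poly-A RNA. The submitters' processing notes name HISAT2 2.0.5, featureCounts 1.5.0-p3, DESeq2 and mm10, without saying which step each served. Among the lung counts, 5 summary lines with 56.3% of the counts named no gene and were left out. Each table was fitted alone with edgeR 4.0.16 (R 4.3.3, limma 3.58.1), using genes kept by filterByExpr (minimum count 10, minimum total 15), TMM scaling, the quasi-likelihood test and Benjamini-Hochberg adjustment over all tested genes. A call needed an adjusted p under 0.05 and, within a cell type or in the average, an absolute log2 fold change over 0.5. A joint fit of 26 samples gave the average effect and the differences between cell types. The tables were made separately, so levels are not compared between cell types. DESeq2 1.42.0 was an alternative, as were other filters, scalings, a replicate block and leaving out each sample. Scripts were tested on simulated data. Exact permutation tests were two-sided, on CPM.

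The members, lists and tests were chosen with earlier results of these data known. Genes were named if called by edgeR or DESeq2, among the 5 smallest p in a direction in a cell type or the average, among the 4 nearest to Ackr2 on each side, apart between genotypes in at least 2 cell types, known for their role, or at the limits of the segment. Other genes are named only as members of a counted group. Monocyte and SPM samples were pools of several mice, and the p-values measure the spread between such pools, or between lung samples. Of 44 pairs of replicates 0 were identical. A chi-square was obtained for part of them only, not for any pair of WT monocyte samples and not for most lung pairs. The smallest of those obtained was 19.2 per degree of freedom.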

Additional observations from a re-analysis of the deposited data

Results flagged for a closer look

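In 7 of 52 groups of 4 or 5 samples tested, 1 sample stood apart from the rest of its group by Dixon's test. The groups were those of Ackr2 and of named genes with an unadjusted p or a DESeq2 adjusted p under 0.05. The rate of about 1 in 20 groups by chance therefore does not apply to them. Vill was at 91.2 CPM in ACKR2-/- replicate 3 of monocytes against 70.2 to 72.9 CPM in the others. In SPMs, WT replicate 1 stood apart for Lars2 (507 CPM against 22.9 to 105.2 CPM), Limd1 (61.2 CPM against 18.9 to 21.2 CPM) and Ppp2r3d (11.1 CPM against 5.73 to 6.16 CPM). Gm39469 was at 1.55 CPM in WT replicate 4 of SPMs against 2.55 to 2.68 CPM, and at 1.92 CPM in WT replicate 4 of lung macrophages against 1.22 to 1.41 CPM. Ackr2 was at 0.111 CPM in WT replicate 3 of monocytes and at 0 in the other 3 WT samples. A single sample with any read always stands apart in such a group.

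The genotype effect on Ppp2r3d differed between monocytes and SPMs by 2.35 in log2 with DESeq2 (adjusted p = 0.00618), while edgeR gave 2.26 (adjusted p = 0.0887).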

How the results depend on the processing

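The count of members called in monocytes, 2, moved to 9 with DESeq2, to 6 with no filter on low counts, and to between 0 and 4 when 1 sample was left out. DESeq2 moved the count from 0 to 1 in SPMs, from 0 to 1 in lung macrophages and from 0 to 1 for the difference between monocytes and SPMs, where leaving out 1 sample gave 0 to 1. The 1 came without monocyte WT replicate 3 (Ppp2r3d 3.02, edgeR adjusted p = 0.0114). For the average the count was 2 in all 26 fits without 1 sample and 1 with the replicate block, where Eomes had an adjusted p of 0.0536. Most replicates with the same number did not deviate together (correlations from -0.12 to 0.31 in monocytes, -0.09 to 0.02 in SPMs and -0.08 to 0.64 in lung macrophages). Only for monocyte replicate 2 (0.31) and lung replicate 1 (0.64) did the WT sample correlate best with its own number. Pairing by number was thus not consistent. The block made Limd1 pass in monocytes (-0.79, edgeR adjusted p = 0.0264). Of 618 values of single genes under alternatives, 587 kept their direction and side of the threshold, 14 no longer passed, 17 newly passed and 0 changed direction. Only genes that passed in the main fit could stop passing. In monocytes Sacm1l stopped passing in 6 of 15 alternatives and Vill in 7 of 15. For the average, Eomes did so in 1 of 31 and Limd1 in 0 of 31. The cause was not tested in any of these. Members under about 1 CPM rest on few reads, where small differences were not detectable at this depth.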

Other observations

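No member of the other role groups was called by edgeR in any cell type. They were lipid and small molecule metabolism (5 members, of which 4, 3 and 5 were tested in monocytes, SPMs and lung macrophages), mitochondria (4 members, all tested), DNA repair, chromatin and transcription (5 members, 3, 3 and 5 tested), RNA processing and translation (3 members, all tested) and the ubiquitin pathway (1 member). The last is Wdr48, a cofactor of deubiquitinases, which was at 31.4 ± 5.56 CPM in WT and 22.5 ± 5.39 CPM in ACKR2-/- monocytes (SD, n = 4 each, edgeR adjusted p = 0.209) and at 5.75 ± 0.66 and 6.92 ± 0.64 CPM in SPMs. Nktr, a cyclophilin-related protein, was at 28.4 ± 5.50 CPM in WT and 39.5 ± 10.8 CPM in ACKR2-/- monocytes, and Gm47121, inside Snrk, at 0.63 ± 0.23 and 1.34 ± 0.43 CPM, both with overlap (edgeR adjusted p = 0.244 and 0.192).

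Ctdspl, a phosphatase of the RNA polymerase tail, was at 3.25 ± 0.77 CPM in WT and 5.40 ± 2.66 CPM in ACKR2-/- SPMs, and Gorasp1, a Golgi stacking protein, at 4.06 ± 1.08 and 5.05 ± 0.36 CPM. In lung macrophages Golga4, a golgin, was at 22.5 ± 7.84 and 16.1 ± 3.48 CPM, Cmc1 at 14.0 ± 2.87 and 20.3 ± 7.07 CPM, Tgm4 at 2.34 ± 0.79 and 3.59 ± 1.22 CPM and Gm47162 at 10.9 ± 2.30 and 13.5 ± 2.64 CPM (SD, n = 5 each). The genotypes overlapped in all of these.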
